A study of Homo sapiens with 2 samples.

Results

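A group of 4 genes was described: SLC25A12, METAP1D, PLD6 and MTHFD2, whose products work in mitochondria. An annotated start of each lay at or near the highest-ranked promoter peaks of a chromatin immunoprecipitation with a Myc antibody, from cells with tagged KLF7. For SLC25A12 this was not the RefSeq start or that of its only protein-coding GENCODE transcript, both 105737 bp from the summit. A peak was taken when 1 of the 4 symbols stood exactly in its list of overlapped gene features or was its nearest gene, which gave 4 of the 1900 deposited peaks. The 4 genes had been chosen by the fold enrichment of their peaks, so fold enrichment, pileup, q-value and rank are given below as a description, with no test.

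The study placed a myc-tagged KLF7 in CAL27 cells, an established tongue cancer line, by lentivirus, and sequenced 1 chromatin library precipitated with the antibody Myc (CST, D3N8F) and 1 input library with antibody None. Both libraries carried the genotype myc_KLF7, came from the same single line, and had no replicate, so no value below has an error from repeated experiments. Cells lacking myc-KLF7 were not analysed here, so signal from the tagged protein and other signal of a Myc antibody cannot be told apart. The deposited table gives no read totals and no expression values, so depth is unknown and the tongue cancer label could not be set against marker genes.

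KLF7 belongs to the Krüppel-like zinc finger proteins, which bind GC-rich and CACCC-type DNA. SLC25A12 is a carrier of the inner mitochondrial membrane that exchanges aspartate for glutamate and forms a step of the malate-aspartate shuttle, through which reducing equivalents of cytosolic NADH enter mitochondria. METAP1D is the mitochondrial methionine aminopeptidase, which removes the first methionine from proteins. PLD6 sits on the outer mitochondrial membrane, where it acts on cardiolipin in mitochondrial fusion, and it also takes part in piRNA production. MTHFD2 is the mitochondrial methylenetetrahydrofolate dehydrogenase and cyclohydrolase of the folate one-carbon pathway, which supplies one-carbon units for nucleotide synthesis.

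The sequences under the 3 strong peaks show what they shared and where they differed. The E-box CACGTG, a palindrome bound by MYC with MAX and by other basic helix-loop-helix proteins, stood once under the SLC25A12/METAP1D peak and 3 times under the PLD6 peak, and was absent from both MTHFD2 peaks. The E-boxes are shown with 12 bases on either side, in capitals, from hg38.
SLC25A12/METAP1D E-box, chr2:171999940-171999969, plus strand: agtgctcgcggcCACGTGaccgacgccaac
PLD6 left E-box, chr17:17206489-17206518, plus strand: agcgccaacggcCACGTGccaggccacgtg
PLD6 middle E-box, chr17:17206501-17206530, plus strand: cacgtgccaggcCACGTGccaggccacgcc
PLD6 right E-box, chr17:17206572-17206601, plus strand: cccaccaacggcCACGTGcaaggtcacgcc

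All 4 of these E-boxes followed the bases GGC on the plus strand, which made the longer word GGCCACGTG, a feature seen only after the sequences were read. Searched on both strands of the window within 100 bp of the summit, GGCCACGTG was held by 28 of the 153 promoter peaks with CACGTG (18.3%, 95% Wilson interval 13 to 25.2%). Around protein-coding gene starts the same word was held by 103 of 1173 windows with CACGTG (8.78%, 7.29 to 10.5%).

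The PLD6 peak carried its E-boxes among many other copies of the shorter word CACG. Counted on both strands, CACG occurred 24 times in the PLD6 peak, the most of any of the 571 promoter peaks on assembled chromosomes, whose median was 3. Per 100 bases this was 5.29 in the PLD6 peak, 2.3 in the SLC25A12/METAP1D peak, 0.783 in the stronger MTHFD2 peak and 1.05 in the weaker one, beside a median of 1.02. The longest word that the PLD6 peak held more than once was 24 bases long, and 17.8% of its 12-base words were repeated, the 8th highest share of the 571 peaks. That longest word, cgccaggccacgcccccgtcacgc, holds CACG outside any E-box, so the repeat adds to the count of CACG. CACG is part of other words as well, and its count is not a count of E-box-like sites. The other 3 member peaks had no repeated 12-base word, as was the case for 461 of the 571. Despite the repeats, each of the 424 words of 31 bases in the PLD6 peak occurred at a single place in hg38, as did all 361 of the SLC25A12/METAP1D peak, all 353 of the stronger MTHFD2 peak and all 160 of the weaker one.

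MTHFD2 showed another makeup. The 100 bases before its deposited gene start held the E-box variant CATGCG and a CCAAT box, the word read by NF-Y, and 30 bases to the right of the summit held the variants CACGAG and CACGCG, the last as its reverse complement. These words are in capitals. GGGTGG, the reverse complement of a CACCC-type word, directly followed the CCAAT box and is left in small letters. At SLC25A12/METAP1D a pair of overlapping GC boxes, GGGCGG, the GC-rich word read by SP and Krüppel-like proteins, stood between the gene starts. Another GGGCGG, not shown, also lay between them, at -109.5 bp from the summit.
MTHFD2 upstream, chr2:74198462-74198561, plus strand: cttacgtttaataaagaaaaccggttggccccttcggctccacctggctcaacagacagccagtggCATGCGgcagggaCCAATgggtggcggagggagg
MTHFD2 right of the summit, chr2:74198568-74198597, plus strand: ctgcCACGAGgccgcagtataacCGCGTGg
SLC25A12/METAP1D GC boxes, chr2:171999913-171999942, plus strand: cggctccagcGGGCGGGGCGGcgagcgagt

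The strongest of the 4 peaks, on chromosome 2, belonged to SLC25A12 and METAP1D together. It spanned chr2:171999797-172000187 in hg38, 391 bp, with its summit at 171999981. At the summit 25 ChIP fragments were piled up (exact 95% Poisson interval 16.2 to 36.9) over a local background of 0.928 fragments, which gave a fold enrichment of 13.5 (8.91 to 19.7) and a q-value of 1.28e-23. Fold enrichment here is the pileup plus 1 over the background plus 1, and its interval carries the counting error of the pileup only. Only the peak of CYR61, a secreted matricellular protein, had a higher fold enrichment among the 576 peaks with a promoter entry, at 45.5 with a pileup of 116.

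The stronger MTHFD2 peak followed at rank 3. It spanned chr2:74198372-74198754, 383 bp, with its summit at 74198567, and it too had a pileup of 25 (16.2 to 36.9). Its background was 1.26 and its fold enrichment 11.5 (7.61 to 16.8), with a q-value of 2.06e-20. The same pileup as at SLC25A12/METAP1D therefore gave a lower fold enrichment, over a higher background.

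The PLD6 peak stood at rank 5, behind the translation factor EIF4A1, whose pileup was 23 and fold enrichment 11.5. It spanned chr17:17206229-17206682, 454 bp, with its summit at 17206445. Its pileup of 26 (17 to 38.1) was the highest of the member peaks, its background of 1.44 the highest of the 3 strong ones, and its fold enrichment 11.1 (7.38 to 16) with a q-value of 2.95e-20. The order of the 3 strong peaks by fold enrichment was thus the reverse of their order by background, their pileups lay within 1 fragment of each other, and their intervals overlapped.

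A weaker MTHFD2 peak lay to the right of the stronger one, at chr2:74198972-74199161, 190 bp, and it was not among the top peaks. Its summit at 74198973 was the base next to the left end of the peak and 406 bp from the stronger summit. The pileup was 9 (4.12 to 17.1), the background 1.57, the fold enrichment 3.89 (1.99 to 7.04) and the q-value 0.0193. It ranked 527.5 by fold enrichment, and 7 other promoter peaks had exactly its pileup and fold enrichment.

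**Figure D1:**
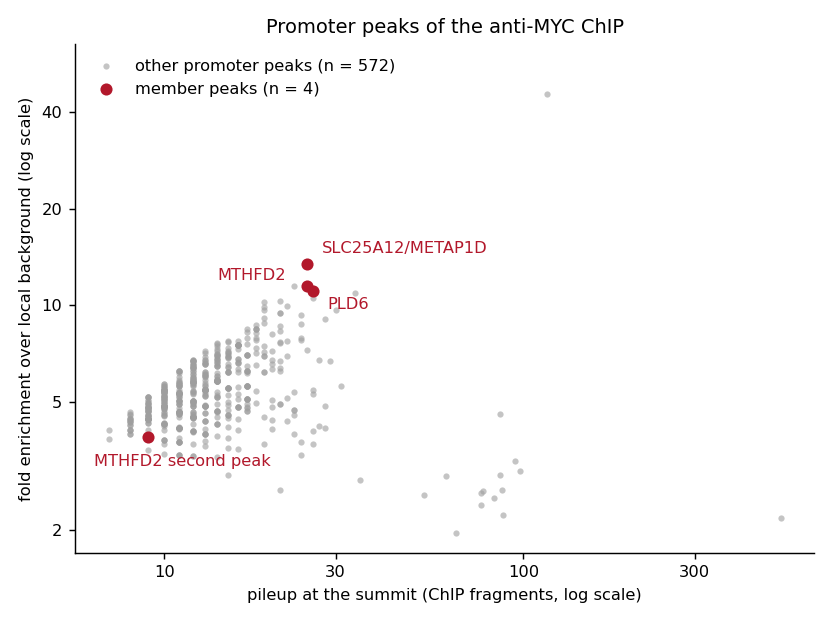
Pileup at the summit (ChIP fragments, x axis) and fold enrichment over the local background (y axis), both on log scales, for the 576 peaks with a promoter entry, 1 point per peak and the 4 member peaks in red. The 3 strong member peaks sit near the upper edge of the main cloud at pileups of 25 and 26, the weaker MTHFD2 peak sits at its lower left with a pileup of 9, and the single point above them all is CYR61.

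Against all 576 promoter peaks the 3 strong peaks stood out more by fold enrichment than by pileup. The median promoter peak had a pileup of 13 (range 7 to 521), a background of 1.56 and a fold enrichment of 5.2 (range 1.96 to 45.5). By pileup SLC25A12/METAP1D and MTHFD2 shared rank 33 and PLD6 had rank 28.5, and outside dense clusters, runs of at least 5 peaks with summits no more than 100 kb apart, these became 14.5 and 11. By q-value the ranks were 5, 6 and 7. No member peak lay in a dense cluster. In the whole table, where peaks without promoter entries also count, they ranked 15, 23 and 28 by fold enrichment.

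The counting error of a single peak covered many ranks. With the pileup moved to the ends of its interval and all other peaks held, SLC25A12/METAP1D ranked between 2 and 18, MTHFD2 between 2 and 42, and PLD6 between 2 and 55. The background of 0.928 at SLC25A12/METAP1D was just above 0.927, the lowest in the table, and 13 promoter peaks had a lower one. Just outside the top 5 came SNHG15, a noncoding snoRNA host gene, at a fold enrichment of 10.9 and a pileup of 34. The promoter entry of that peak belonged to another gene, and SNHG15 had an intron entry.

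**Figure D2:**
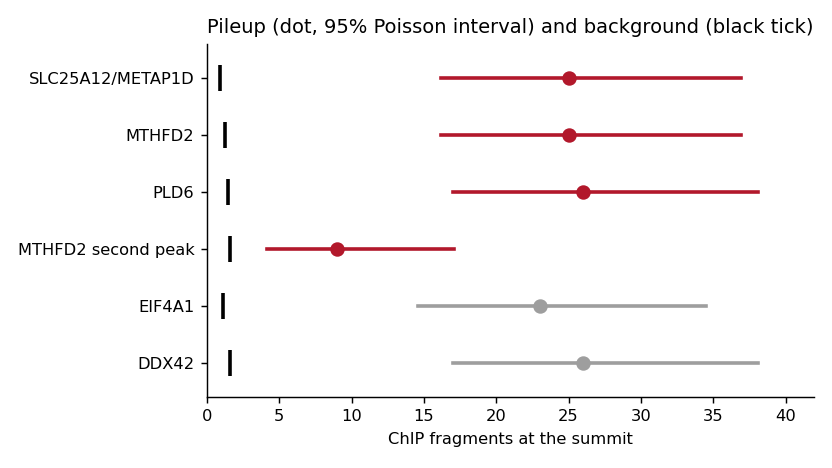
Pileup at the summit with its exact 95% Poisson interval and local background, in fragments (x axis), for the 4 member peaks and the promoter peaks of EIF4A1 and DDX42 (rows). The 3 strong member peaks share almost the same pileup, 25 or 26, and differ in background, from 0.928 to 1.44.

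The 3 promoter peaks most like each strong member peak were found by distance in log2 fold enrichment and log2 pileup over the 576 peaks, which includes the value that chose the members. For SLC25A12/METAP1D they were MTHFD2 (0.23), EIF4A1 (0.26) and PLD6 (0.29), for MTHFD2 they were PLD6 (0.08), EIF4A1 (0.12) and DDX42 (0.14), and for PLD6 they were MTHFD2 and DDX42 (both 0.08) and EIF4A1 (0.18). DDX42 is an RNA helicase, and its peak reached a fold enrichment of 10.5 at a pileup of 26. The promoter entry of that peak belonged to another gene, and DDX42 had 5′ UTR and exon entries. EIF4A1 was annotated to the mitochondrion in the gene ontology column of the table, and it was no member by the symbol rule.

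A promoter entry of their own was given to only 2 of the 4 genes, SLC25A12 and PLD6. This concerns the deposited entries, not the distance to protein-coding transcripts, which is given below. The table gave the SLC25A12/METAP1D peak a promoter entry for SLC25A12 and an exon entry for METAP1D, and the PLD6 peak a promoter entry for PLD6 and an intron entry for AC055811.2. The stronger MTHFD2 peak had entries for the 5′ UTR and an exon of MTHFD2, and the weaker one for an intron. In both, the promoter entry belonged to AC073263.2, so neither MTHFD2 nor METAP1D had a promoter entry of its own.

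SLC25A12 (ENSG00000115840, minus strand) and METAP1D (ENSG00000172878, plus strand) point away from each other, and the summit lay upstream of SLC25A12 and just inside METAP1D. The deposited start of SLC25A12, 171999859, was also that of GENCODE v44, and the summit stood at -122 bp from it, that is upstream. The table names only the nearest gene's start, so METAP1D was measured from GENCODE, where it starts at 171999943 and the summit stood at 38 bp, inside its first exon. In RefSeq METAP1D starts at 171999953, which put the summit at 28 bp. By GENCODE the divergent starts were 84 bp apart.

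The E-box of this peak lay at 9 to 14 bp from the GENCODE start of METAP1D, counting the start base as 0, and at -98 to -93 bp from SLC25A12. From the RefSeq start of METAP1D it lay at -1 to 4 bp, across the start itself.

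The place of the SLC25A12 start depended on the transcript as well as on the annotation. RefSeq starts SLC25A12 at 171894244, and from there the summit stood at -105737 bp. GENCODE had 9 SLC25A12 transcripts, of which 3 started within 200 bp of the summit and 6 over 10000 bp away. Its 1 protein-coding transcript was not among the 3, and it started at 171894244, the same base as in RefSeq. No peak had its summit within 2000 bp of the RefSeq start of SLC25A12. METAP1D had 7 GENCODE transcripts with 3 starting within 200 bp of the summit, its 1 protein-coding transcript among them.

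Such a distance from the RefSeq start was rare among promoter peaks. Of the 284 promoter peaks whose nearest gene had both the promoter entry and a RefSeq start, 272 had their summit within 2000 bp of that start and 10 were over 10000 bp away, with SLC25A12 at place 2 by distance.

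MTHFD2 (ENSG00000065911, plus strand) had 3 candidate starts. The deposited start, 74198562, put the stronger summit at 5 bp and the weaker at 411 bp. RefSeq starts the gene at 74198615, with the summits at -48 and 358 bp. The GENCODE gene starts at 74186172, with the summits at 12395 and 12801 bp, although 12 of its 21 transcripts, 5 of them among the 13 protein-coding ones, started within 200 bp of the stronger summit. On the minus strand GENCODE had the long noncoding RNA ENSG00000279070, which starts at 74198560, so the stronger summit stood at -7 bp from it and the weaker at -413 bp.

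PLD6 (ENSG00000179598, minus strand) has 1 GENCODE transcript. The summit stood at -130 bp from the deposited start, 17206315, and at -112 bp from 17206333, the start in GENCODE and RefSeq. The PLD6 E-boxes lay at -173 to -168, -185 to -180 and -256 to -251 bp from the GENCODE start.

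**Figure D3:**
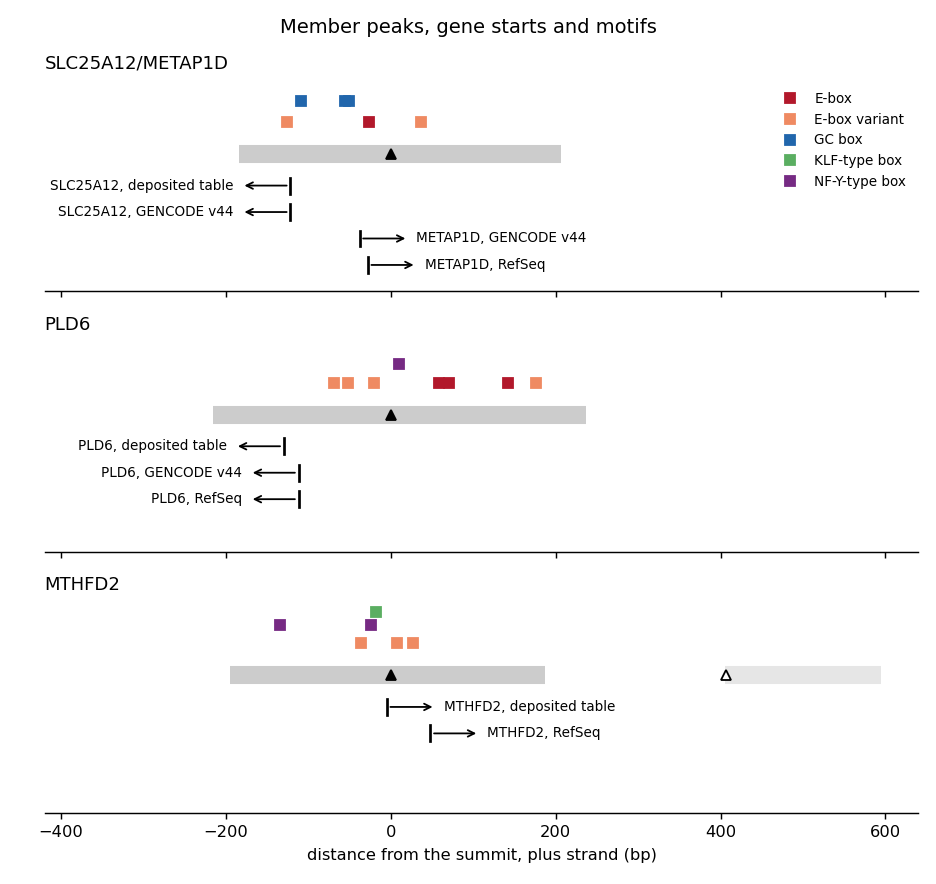
Maps of the member peaks, with distance from the strong summit along the plus strand (bp, x axis), peaks as grey bars, summits as triangles (open for the weaker MTHFD2 peak), gene starts as arrows in the direction of reading and motifs as squares. The SLC25A12 start in RefSeq (105737 bp away) and the MTHFD2 gene start in GENCODE (12395 bp away) lie off the axis, and the motifs of the weaker MTHFD2 peak are not drawn.

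How often a promoter peak was shared by genes of both strands depended on what was counted. Promoter entries named genes of both strands in 49 of 498 peaks (9.84%, Wilson interval 7.52 to 12.8%), and by this count SLC25A12/METAP1D was not one, since METAP1D had no promoter entry. With entries of any kind, which the SLC25A12 promoter and METAP1D exon entries meet, it was 210 of the 451 peaks whose named genes all had a known strand (46.6%, 42 to 51.2%). Counted instead by protein-coding GENCODE gene starts of both strands within 1000 bp of the summit, SLC25A12/METAP1D was 1 of 86 among 571 peaks (15.1%, 12.4 to 18.2%). The SLC25A12 gene start counted here was not that of its only protein-coding transcript, which started 105737 bp from the summit. Of all 20007 protein-coding gene starts, 2677 (13.4%) had a start of the other strand within 1000 bp. The counts by any entry and by gene starts were added after the data were seen. By gene starts MTHFD2 and PLD6 were not of this kind. The GENCODE gene start of MTHFD2 lay 12395 bp from the stronger summit, outside the window, and its partner was a noncoding RNA.

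Of the 4 member peaks, 2 held CACGTG within 100 bp of the summit, those of SLC25A12/METAP1D (centred 26.5 bp to the left) and PLD6 (58.5 and 70.5 bp to the right, with the last at 141.5 bp). It was held by 153 of 571 promoter peaks (26.8%, Wilson interval 23.3 to 30.6%), and by 1173 of 20007 windows around protein-coding gene starts (5.86%). With 4 peaks, 2 of which lie at the same gene, the count of the members cannot be set apart from the share of all promoter peaks.

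The share of peaks with CACGTG was higher toward the top of the ranking that had chosen the members. Of the 10 top-ranked promoter peaks 8 held it (80%), as did 15 of the top 20 (75%) and 25 of the top 50 (50%). In the top 10, only CYR61 and MTHFD2 lacked it. At least 2 copies within 100 bp, as at PLD6, were found in 13 of the 571 peaks (2.28%). The GC box GGGCGG was absent in the top 10 from CYR61, MTHFD2, PLD6, DDX42 and the noncoding LINC01730, while 68.1% of all promoter peaks held it. Shares by rank are given for CACGTG only, and no trend was tested.

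After the sequences were seen, 4 variants of the E-box were also searched, namely CACGCG, then CATGCG and CACGAG, and last the variant CATGTG. At least 1 of the 4 variants was present in 3 member peaks and in 49.6% of promoter peaks (45.5 to 53.7%), against 24.1% of gene starts. MTHFD2 held CACGAG at 7.5 bp, CACGCG at 26.5 bp and CATGCG at -36.5 bp from the summit. PLD6 held CACGCG at -20.5 and -69.5 bp and CATGTG at -52.5 bp, and SLC25A12/METAP1D held CACGCG at 36.5 bp.

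Of the words read by Krüppel-like proteins, GGGCGG was present in 2 member peaks, SLC25A12/METAP1D (at -50.5 and -55.5 bp) and the weaker MTHFD2 peak (56.5 bp), beside 68.1% of promoter peaks and 47% of gene starts. GGGTGG, whose reverse complement is the CACCC-type word, was present in both MTHFD2 peaks, at -18.5 and 67.5 bp from their summits, beside 30.8% and 25.9%. The PLD6 peak had neither within 100 bp. The longer GC box GGGGCGGGG was in no member window, beside 22.2% of promoter peaks. Other words that Krüppel-like proteins may read were not searched, so the PLD6 peak cannot be said to lack such a word.

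The CCAAT box, searched as ATTGG, was present at MTHFD2 (-24 bp) and PLD6 (10 bp), while 15.4% of promoter peaks and 26% of gene starts held it. None of the members held the NRF1 word GCGCATGC, the ETS word CCGGAAGT, the cyclic AMP element TGACGTCA, the CEBP-ATF element TGATGCAA, the ERR word TCAAGGTCA or the YY1 word GATGGCGG within 100 bp, and among promoter peaks their shares ran from 0% for the ERR word to 6.13% for the ETS word. All words were searched on both strands, and absence says only that these letters were not in the window.

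**Figure D4:**
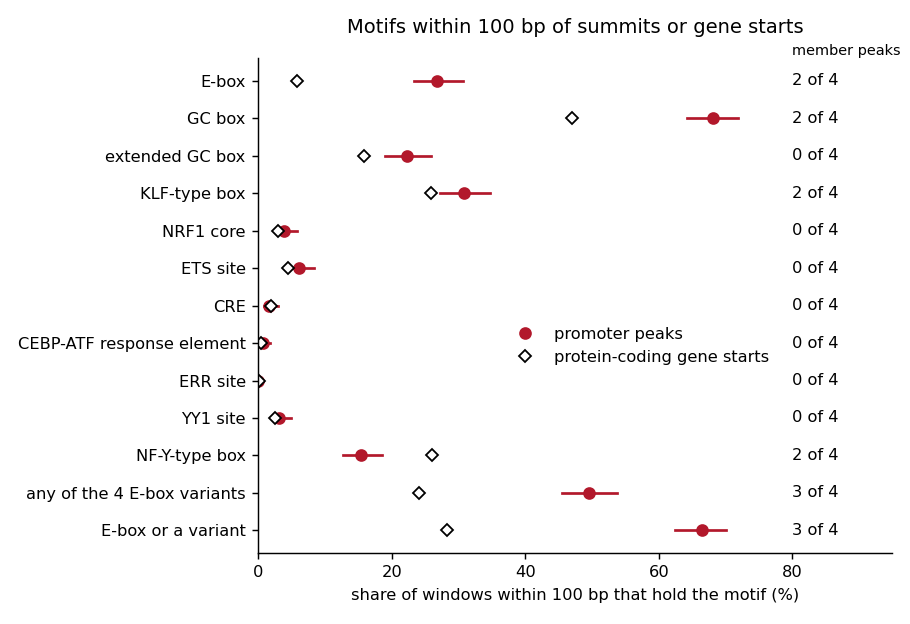
Share of windows reaching 100 bp to either side (percent, x axis) that hold each word (rows), for promoter peaks with 95% Wilson intervals and for protein-coding gene starts. The E-box was held by 26.8% of promoter peaks and 5.86% of gene starts, whereas the NF-Y-type box was less frequent at promoter peaks (15.4%) than at gene starts (26%).

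GC content was 69.3% at SLC25A12/METAP1D, 64% at the stronger MTHFD2 peak, 74% at PLD6 and 71.6% at the weaker MTHFD2 peak, beside a median of 68.6% over promoter peaks. The ratio of observed to expected CpG was 1.03, 0.898, 0.887 and 0.981 in the same order, beside a median of 0.88.

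Other genes of the members' pathways were taken from 7 lists. The lists, with 194 genes in all and members included, gave 13 genes with a promoter entry (6.7%) and 28 with any entry (14.4%), where 427 of 20007 protein-coding genes (2.13%) had a promoter entry and 1269 (6.34%) had any. Without the members, 11 genes had a promoter entry and 24 had any. The members were chosen for their peaks, and the lists with earlier results known. Shares that count a member, here and for single lists below, are therefore raised by that choice and were not tested. The 11 non-member genes with a promoter entry had fold enrichments from 3.7 to 9.07 with a median of 4.65. That they lay below the 3 strong member peaks follows from the choice of the members by fold enrichment.

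Among the SLC25 carriers, the inner-membrane transporters to which SLC25A12 belongs, 5 of 53 had a promoter entry (9.43%). Beside SLC25A12 these were SLC25A40, which carries glutathione (pileup 17, fold enrichment 7.57), SLC25A21 (12, 4.65), SLC25A32, the folate carrier (12, 4.51), and SLC25A36, a pyrimidine nucleotide carrier (10, 3.7). Of the 7 genes of the malate-aspartate shuttle SLC25A12 alone had an entry, and its closest relative SLC25A13 had none.

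In folate one-carbon metabolism and serine synthesis 3 of 30 genes had a promoter entry (10%) and 8 had any entry (26.7%). MTHFD1, the cytosolic enzyme of the same steps, had a promoter peak (pileup 13, fold enrichment 4.86) and an exon peak (10, 4.88). MTHFD1L, the mitochondrial formyltetrahydrofolate synthetase that follows MTHFD2, had an intron peak with 1 E-box (15, 5.55). The thymidylate synthase TYMS had a promoter peak (11, 4.18), while MTHFD2L, the closest relative of MTHFD2, and SHMT2, the mitochondrial serine hydroxymethyltransferase, had no entry.

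Of the 21 genes of N-terminal protein processing, METAP1D had its exon entry and NAA35, a subunit of an N-terminal acetyltransferase, a promoter entry (pileup 12, fold enrichment 4.07). The cytosolic aminopeptidases METAP1 and METAP2 had no entry. Beside PLD6, mitochondrial dynamics and phospholipids had 1 more promoter entry among 32 genes, at the fission factor MFF (16, 7.53), and the piRNA pathway had 1 more among 21, at PIWIL4 (15, 4.56). In the maintenance of mitochondrial DNA and RNA, a list with no member gene, 2 of 36 genes had one: MGME1, a mitochondrial DNA exonuclease (28, 9.07, with 2 E-boxes), and MTERF3 (15, 6.91, with 1).

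**Figure D5:**
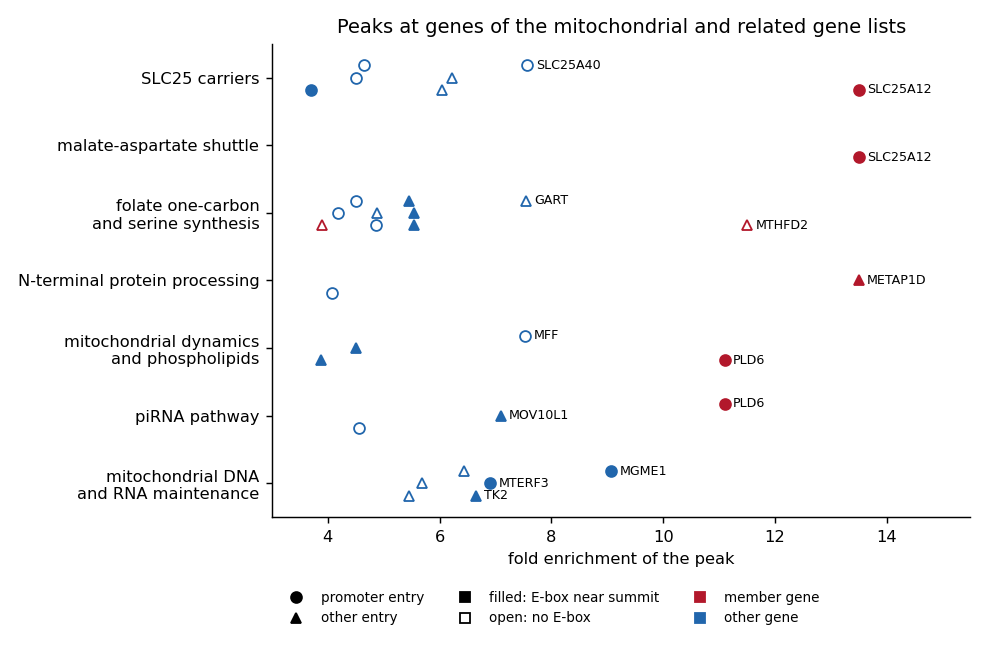
Fold enrichment (x axis) of every peak with an entry for a gene of the 7 lists (rows), circles for promoter entries and triangles for other entries, filled where CACGTG lies within 100 bp of the summit and red for member genes. The strong member peaks, at 11.1 to 13.5, lie to the right because fold enrichment chose them, and the next gene of the lists is MGME1 at 9.07.

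The nearest gene carried the mitochondrion term in 70 of the 392 promoter peaks with any gene ontology entry (17.9%, Wilson interval 14.4 to 22%), among them all 4 member peaks. A further 184 promoter peaks had no gene ontology entry. The share over all genes was not computed, so whether 17.9% is high cannot be said. The median fold enrichment was 5.5 (interquartile range 4.85 to 6.83) in these 70 peaks and 5.24 (4.56 to 6.21) in the other 322. Among the 13 annotated promoter peaks with a fold enrichment of at least 9, 7 had the term, and 3 of these 7 were the strong member peaks, which had been chosen by that value. The E-box was near the summit, within 100 bp, at 23 of the 70 (32.9%, 23 to 44.5%) and at 92 of the 322 (28.6%, 23.9 to 33.7%), with overlapping intervals.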

How the data were processed

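Input and anti-MYC ChIP DNA of CAL27 cells with myc-KLF7 was sequenced, 1 library each. Per the labels and the study's methods, the authors trimmed reads with Trimmomatic, mapped them with BWA to hg38, removed duplicates with Samtools, and ran MACS2 with the input as control (q-value 0.05). The submitters' processing notes also name FastQC and ChIPseeker. The deposited table of 1900 peaks gives a pileup signal (fragments over the summit), a fold enrichment ratio, and q-values as −log10, all from MACS2. The GO terms and nearest gene come from the same table.

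The 4 genes and the gene lists were chosen with earlier results of these data known. Background was recomputed as the pileup plus 1 over the fold enrichment, minus 1. Intervals were exact Poisson for pileups and Wilson for shares (scipy 1.17.1, statsmodels 0.14.6), at 95%, and cover counting error only. Gene starts came from GENCODE v44 and RefSeq (GRCh38.p14), and sequences from hg38, whose chromosome lengths contained all 1854 peaks on assembled chromosomes. Promoter peaks were the 576 with a promoter entry, 571 of them on assembled chromosomes for motif searches. With no replicates no test was run. Named genes were the members, genes named in their peaks' entries, list genes with a promoter entry, close relatives, and the promoter peaks nearest by rank and likeness. The motif search and the recomputed background were tested on simulated data, and the interval code was not. Alternatives were other rank measures, gene starts, windows and thresholds.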

Additional observations from a re-analysis of the deposited data

How the results depend on the processing

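No paired analysis was possible because there is 1 library of each kind. The 17 results were recomputed in 53 alternative ways. In 40 the value stayed within the counting error, the reach of the peak around its centre with no change of side (distances) or 1.5-fold (counts), and in 13 it did not. Without the added 1, the fold enrichments were 26.9 (SLC25A12/METAP1D), 19.9 (MTHFD2) and 18.1 (PLD6), in the same order. By pileup SLC25A12/METAP1D ranked 33. The distance from the summit became -105737 bp for SLC25A12 with RefSeq, -48 bp (RefSeq) and 12395 bp (GENCODE) for MTHFD2, and 12801 bp for its weaker peak with GENCODE. With a window of 50 bp, 1 member peak held CACGTG. Of the 13 list genes with a promoter entry 6 had a fold enrichment of at least 5, and 28 had any entry. Peaks at genes of both strands were 15.1% by gene starts, and 46.6% by entries of any kind, against 9.84% by promoter entries. Both definitions were added after the data were seen, as were the E-box variants and the pileup ranks outside dense clusters. The weaker MTHFD2 peak was lost at a q-value of 0.01, a fold enrichment of 5 or a pileup of 10, and the other 3 were kept. With 1 ChIP library, pileups of 9 to 26 fragments limit every value, and the spread between experiments is unknown.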
